A study of Mus musculus with 6 samples.

Results

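The inhibin, activin, follistatin and bone morphogenetic protein (BMP) genes were followed here in the newborn mouse ovary. The 10 genes were Inha, Inhba, Inhbb, Fst, Fstl3, Bmp2, Bmp4, Bmp7, Acvr2a and Acvr2b, and every probe that the platform annotation assigns to one of them was taken. This gave 12 of the 45281 probes on the array, for 9 of the 10 genes, and no probe was named Inhbb. Total RNA of whole ovary was measured on 6 Illumina MouseWG-6 arrays, 2 from wildtype newborns and 4 from newborns lacking both Sohlh1 and Sohlh2, all on a C57BL/6/129S6/SvEv background. Sohlh1 and Sohlh2 are transcription factor genes of germ cells, both of the basic helix-loop-helix class. The sources used here do not say whether each array held 1 animal, a pool or a litter, and the tests below rest on the scatter among these 6 samples, which may be technical. Arrays are named by the numbers in their titles, wildtype 2 and 3 and double knockout 1, 2, 3 and 5.

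Activins and inhibins are built from shared subunits. Pairs of beta subunits, encoded by Inhba and Inhbb, form activins, while an alpha subunit from Inha joined to a beta subunit forms an inhibin, which opposes activin and restrains the release of follicle-stimulating hormone. Follistatin (Fst) and the follistatin-like protein Fstl3 bind activins in the extracellular space and keep them from their receptors, and follistatin also binds some BMPs. Activins and several BMPs signal through the type II receptors encoded by Acvr2a and Acvr2b, which pair with type I receptors to phosphorylate Smad proteins. In the perinatal mouse ovary, activin is known to act on germ cell number and Fst and Bmp2 are known as ovarian genes of the somatic cells, while Bmp4 and Bmp7 are known, from rat follicles, as products of theca cells that act on granulosa cells.

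The deleted factors belong to the basic helix-loop-helix class, which binds E-boxes, so the start-site windows of 3 genes with a detected probe are shown with E-boxes (CANNTG, which reads the same as a pattern on both strands) in capitals. Each window runs from 250 bases before to 50 bases after 1 RefSeq transcript start on GRCm38.p6, 5′ to 3′ on the strand of the gene. For Inha and Inhba that start lay inside the RefSeq gene span, which begins upstream, at base 75507077 and base 16004256 of their chromosomes. Windows at any other start of these genes were not examined. The Inha window lies at chr1:75507359-75507658 (plus strand), the Inhba window at chr13:16011601-16011900 (plus strand) and the Bmp4 window at chr14:46390620-46390919 (minus strand).
Inha: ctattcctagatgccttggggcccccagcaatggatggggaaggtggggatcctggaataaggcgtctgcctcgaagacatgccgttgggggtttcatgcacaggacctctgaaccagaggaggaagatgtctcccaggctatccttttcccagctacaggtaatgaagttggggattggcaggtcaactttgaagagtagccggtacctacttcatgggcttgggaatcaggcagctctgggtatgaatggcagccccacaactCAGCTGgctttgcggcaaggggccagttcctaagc
Inhba: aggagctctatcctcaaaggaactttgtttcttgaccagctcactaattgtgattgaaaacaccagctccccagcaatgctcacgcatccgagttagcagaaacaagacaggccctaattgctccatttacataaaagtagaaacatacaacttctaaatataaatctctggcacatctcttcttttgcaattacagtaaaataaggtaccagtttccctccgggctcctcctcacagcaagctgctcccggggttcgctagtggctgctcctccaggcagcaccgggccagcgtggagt
Bmp4: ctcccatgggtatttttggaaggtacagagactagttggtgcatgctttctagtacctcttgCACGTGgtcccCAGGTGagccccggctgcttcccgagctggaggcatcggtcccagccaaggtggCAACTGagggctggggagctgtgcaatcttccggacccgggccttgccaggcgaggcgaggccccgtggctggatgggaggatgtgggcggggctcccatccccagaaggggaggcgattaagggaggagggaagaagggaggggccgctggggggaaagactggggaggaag
The Inha window held 1 E-box, which begins at base 16 of the transcript that starts there. The Inhba window held 0. The Bmp4 window held 3, which begin 188, 177 and 123 bases before the start. An E-box was present in 72.3% of all 32851 windows in the table, so these matches only describe the letters of the windows. The table held windows for 7 of the 10 genes, and 3 of the 7 contained an E-box. The 3 were Inha, Bmp4 and Fstl3, whose probe lay at background. Acvr2b, which also had a detected probe, had a window with 0 E-boxes that is not shown.

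On the arrays, 6 of the 12 probes gave a clear signal and 6 lay at background. One probe each for Inha, Inhba, Fst, Bmp4, Bmp7 and Acvr2b was detected on all 6 arrays, detection meaning a detection p under 0.05 in the deposited table. The 6 other probes had raw signals of 40.2 to 65.7, beside array medians of 59.3 to 61.1 over all probes, and 5 of them were detected on 0 arrays. A level at background is an upper limit set by the array and does not show that a transcript was absent.

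**Figure D1:**
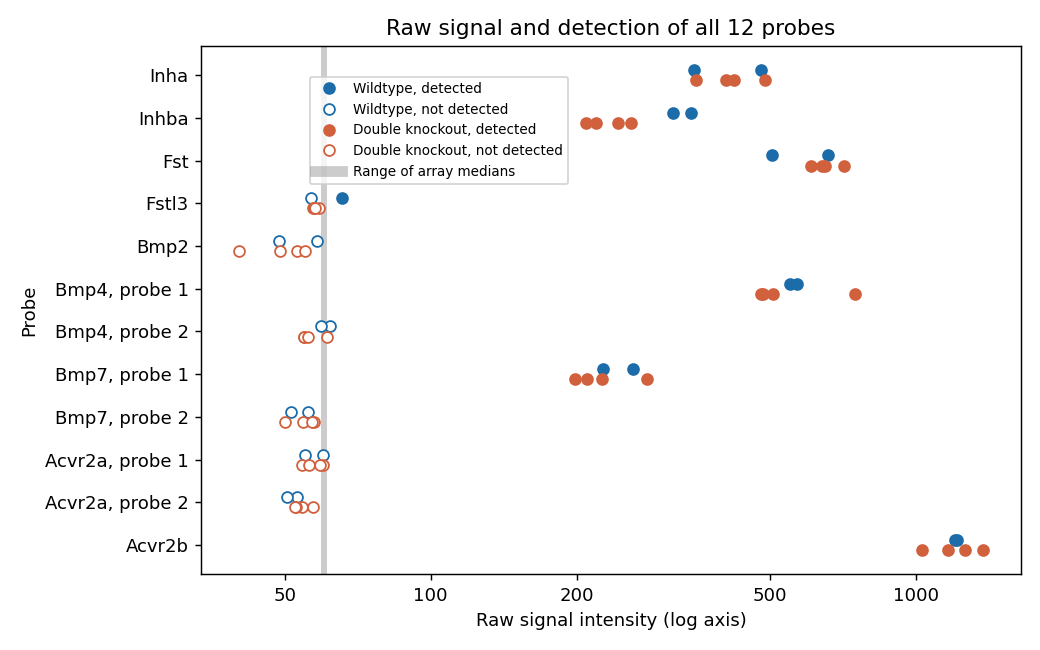
Raw signal intensity (log axis) of all 12 probes on the 2 wildtype and 4 double-knockout arrays, with filled points for detected and open points for undetected values and a grey band for the range of array medians. The 6 tested probes sit at 198.6 or above on every array, and the 6 others sit at 65.7 or below.

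The comparison asked whether loss of both factors was accompanied by a change in these genes. None of the 6 tested probes passed the threshold in either direction. With limma's test, 0 of 6 had an adjusted p under 0.05 and 1 of 6, Fst, had an unadjusted p under 0.05. Over all 21981 tested probes, 7.27% passed after adjustment (3.62% lower and 3.65% higher in the double knockout) and 24.5% had an unadjusted p under 0.05. The tested changes ran from -0.37 for Inhba to 0.43 for Fst on the log2 scale (double knockout minus wildtype, as for all changes below), with a median of 0.21 against -5.28e-05 over all tested probes. The 95% intervals reached at most 1.78-fold in either direction, so a change of 2-fold or more lay outside the interval of each of the 6 probes. These intervals are not adjusted for the number of probes. Because whole ovaries were measured, fewer cells of a type and less RNA per cell cannot be told apart.

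**Figure D2:**
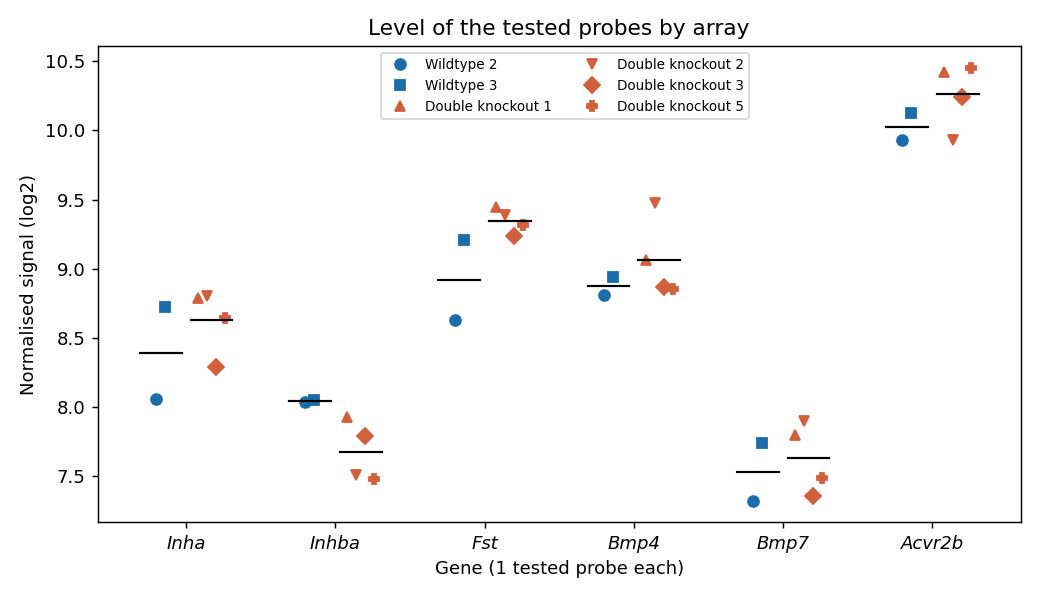
Normalised log2 signal of the 6 tested probes on each array, with wildtype arrays in blue, double-knockout arrays in orange and a bar at each group mean. The groups do not overlap for Inhba and Fst, and wildtype array 2 is the lowest of the 6 arrays for Inha, Fst, Bmp4 and Bmp7 and, level with double-knockout array 2 at 9.93, for Acvr2b.

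Among the subunit genes, Inha and Inhba were both detected on every array. The Inha probe (ILMN_1239270) had raw signals of 348.3 and 479.7 on wildtype arrays 2 and 3. Its signals on double-knockout arrays 1, 2, 3 and 5 were 404.8, 488.5, 352.5 and 420.7. The double-knockout values thus spanned about the same range as the wildtype pair, and the groups overlapped. After normalisation the log2 level of Inha was 8.39 ± 0.47 (SD, n = 2) in wildtype and 8.63 ± 0.24 (SD, n = 4) in the double knockout. The change was 0.24 ± 0.22 (SE), 1.18-fold, with a 95% interval of 0.836-fold to 1.67-fold and an adjusted p of 0.547 from limma. The wildtype pair differed by 0.66 for Inha, a gap that 3.89% of all tested probes reached, and leaving out array 2 of the pair gave a change of -0.09, while leaving out array 3 gave 0.57.

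Inhba, which encodes the beta A subunit, was the only tested gene with a lower mean in the double knockout. Its probe (ILMN_2868220) had raw signals of 343.9 and 314.8 on the wildtype arrays. The double-knockout arrays gave 243.1, 219.5, 258.3 and 209.0. Every double-knockout array was below both wildtype arrays, by raw signal and after normalisation. The log2 level was 8.04 ± 0.01 (SD, n = 2) in wildtype and 7.68 ± 0.22 (SD, n = 4) in the double knockout, a change of -0.37 ± 0.17 (SE) with adjusted p = 0.220 from limma. In linear terms wildtype was 1.29-fold above the double knockout, with a 95% interval from 0.991-fold to 1.68-fold. The change stayed between -0.45 and -0.30 whichever array was left out, with an adjusted p of 0.167 or more. Non-overlap of the arrays was seen for 2 of the 6 tested probes (Inhba and Fst) and for 34.8% of all tested probes.

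The other beta subunit gene, Inhbb, was not analysed here because no probe carried its name. Inhibin B and activin B could therefore not be followed at the transcript level.

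Of the activin-binding proteins, Fst was detected on every array and Fstl3 was not. The Fst probe (ILMN_1228958) had raw signals of 505.0 and 656.8 on wildtype arrays 2 and 3. On double-knockout arrays 1, 2, 3 and 5 it read 607.2, 710.1, 640.3 and 650.3. By raw signal wildtype array 3 lay inside the double-knockout range, and after normalisation all 4 double-knockout arrays (9.24 to 9.44) lay above it, though the lowest exceeded it by little (9.24 against 9.21 on the log2 scale). The mean log2 level was 8.92 ± 0.41 (SD, n = 2) in wildtype and 9.35 ± 0.09 (SD, n = 4) in the double knockout, so the wildtype pair was the more variable group. The change was 0.43 ± 0.18 (SE), 1.35-fold with a 95% interval of 1.02-fold to 1.78-fold. The unadjusted limma p-value of Fst was 0.0399, and its adjusted p over all probes was 0.180. Leaving out wildtype array 2 brought it to 0.14 (adjusted p = 0.778 in limma), and leaving out wildtype array 3 to 0.72 (adjusted p = 0.0960).

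An exact two-sided permutation test of single probes gave p = 0.133 for Fst and for Inhba. This is the smallest value that 2 arrays against 4 allow, so that test could not separate the genotypes for any gene.

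Fstl3 lay at background. Its probe (ILMN_2636738) was detected on wildtype array 3 alone, with a raw signal of 65.7 and a detection p of 0.0321. On wildtype array 2 it read 56.6, and the 4 double-knockout arrays read 57.3 to 59.0. It was detected on 1 of 6 arrays, was not tested, and no fold is given.

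The BMP ligands separated into Bmp4 and Bmp7, each detected by 1 of 2 probes, and Bmp2, not detected. The brighter Bmp4 probe (ILMN_1215252) had raw signals of 567.7 and 550.0 on the wildtype arrays. On the double-knockout arrays it read 477.9, 749.2, 506.3 and 483.9. Double-knockout array 2 was the highest by raw signal and after normalisation, and on the log2 scale the remaining double-knockout arrays (8.85 to 9.06) overlapped the wildtype pair (8.81 and 8.94). The mean log2 level of Bmp4 was 8.88 ± 0.09 (SD, n = 2) in wildtype and 9.06 ± 0.29 (SD, n = 4) in the double knockout, and the change was 0.19 ± 0.19 (SE), 1.14-fold, with a 95% interval of 0.842-fold to 1.54-fold and adjusted p = 0.595 from limma. Without double-knockout array 2 it was 0.05. The second Bmp4 probe (ILMN_1235698) was detected on 0 arrays, with raw signals of 54.9 to 62.0.

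Bmp7 showed no clear order of the genotypes. Its detected probe (ILMN_2589662) read 226.5 and 260.5 on the wildtype arrays. It read 225.6, 278.3, 198.6 and 210.3 on the double-knockout arrays, which spanned both wildtype values. The change was 0.10 ± 0.20 (SE), 1.07-fold, with a 95% interval of 0.787-fold to 1.47-fold and adjusted p = 0.794 from limma, between log2 levels of 7.53 ± 0.29 (SD, n = 2) and 7.64 ± 0.26 (SD, n = 4). Of the wildtype pair, leaving out array 2 gave -0.11 and leaving out array 3 gave 0.31. The other Bmp7 probe (ILMN_1249526) was detected on 0 arrays, with raw signals of 50 to 57.6.

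Bmp2 had a single probe (ILMN_2616888), detected on 0 of 6 arrays. Its raw signals were 48.8 and 58.2 in wildtype and 40.2 to 55.2 in the double knockout, all below the array medians, and a difference between the genotypes was not detectable at this signal.

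Of the type II receptors, Acvr2b was detected on every array and the Acvr2a probes were at background. The Acvr2b probe (ILMN_1230145) read 1213.2 and 1200.0 in wildtype. In the double knockout it read 1164.2, 1027.9, 1258.2 and 1374.6. Double-knockout arrays 2 and 5 were thus the lowest and the highest by raw signal, and the groups overlapped. The log2 level was 10.03 ± 0.14 (SD, n = 2) in wildtype and 10.26 ± 0.24 (SD, n = 4) in the double knockout. The change was 0.24 ± 0.18 (SE), 1.18-fold, with a 95% interval of 0.890-fold to 1.56-fold and adjusted p = 0.459 from limma. It was 0.14 when wildtype array 2 was left out and ran up to 0.35 over the other arrays left out, and 0.06 with the title numbers as a replicate block. Both Acvr2a probes (ILMN_2617775 and ILMN_2563120) were detected on 0 arrays, with raw signals of 54.4 to 60.1 and 50.5 to 57.3.

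**Figure D3:**
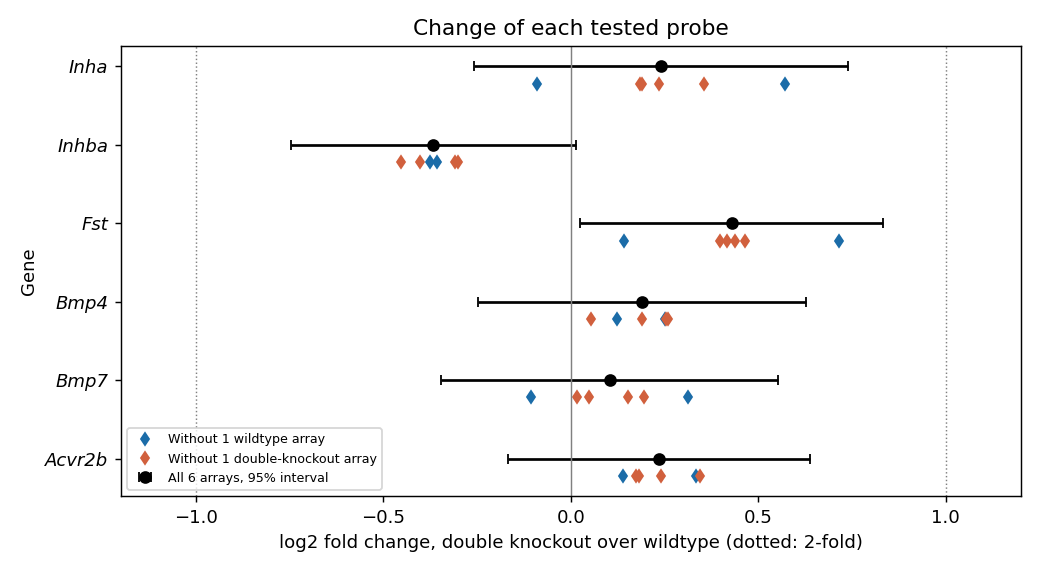
Log2 fold change (double knockout over wildtype) of the 6 tested probes with its 95% interval (black), and the change without each array in turn (blue diamonds for a left-out wildtype array, orange for a double-knockout array). All intervals stay inside 2-fold (dotted lines), and leaving out wildtype array 2 turns the sign for Inha and Bmp7.

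Across the 6 arrays, the genes whose pattern was nearest to Inha among 12162 others were Akt1s1 (Pearson r = 0.984, Spearman rho = 0.8286), Gas2l1 (r = 0.982) and Ubqln4 (r = 0.977), the last pair with the same rho. For Fst they were Rpusd1 (r = 0.993, rho = 0.943), Gm2a (r = 0.991, rho = 1) and Ier5l (r = 0.989, rho = 0.771). None of these 6 passed the genotype test, with changes of 0.13 to 0.20 for the first group and 0.36 to 0.53 for the second. The values describe 6 arrays that share 1 slide and the 2 genotypes, and the best of so many genes will be close by selection.

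The rest of the pathway was followed through 79 listed genes, of which 48 were tested. At the brightest probe of each gene, 2 fell, 2 rose and 44 did not pass. By probe, 4 of 68 fell and 2 rose, 8.82% called against 7.27% of all tested probes, and the median change was -0.05. The number of called pathway probes was 1, that of Gdf9, when double-knockout array 1 was left out, and 4 or 5 for each other double-knockout array. Leaving out either wildtype array lowered it as well. These are counts over all tested pathway probes and can include probes outside the 6.

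Of the other ligand genes 13 were tested, and 1 fell while 12 did not pass, with a median change of 0.09. The one that fell was Gdf9, a growth factor secreted by oocytes. Its log2 levels were 11.13 and 10.97 on the wildtype arrays and 8.82, 7.49, 8.33 and 8.65 on double-knockout arrays 1, 2, 3 and 5. All 4 double-knockout arrays were far below the wildtype pair, a change of -2.73 ± 0.32 (SE, adjusted p = 0.00202 from limma), and the call held without each array in turn.

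Of the other receptor and co-receptor genes 11 were tested, and 1 rose while 10 did not pass at the brightest probe (median change over 18 probes -0.04). Amhr2, the type II receptor for anti-Müllerian hormone, rose by 0.63 ± 0.16 (SE, adjusted p = 0.0486 from limma), from 11.29 and 11.71 on the wildtype arrays to 11.99 to 12.22 in the double knockout. Its call ended whichever of the 6 arrays was left out (adjusted p up to 0.349), and the other Amhr2 probes gave 0.87 (adjusted p = 0.0552) and 0.28 (adjusted p = 0.543). Bmpr1a, a type I receptor for BMPs, was named after its values were seen. One of its probes fell (-0.66, adjusted p = 0.0409), while the brighter one gave -0.56 (adjusted p = 0.168). The Bmpr1a call ended without 5 of the 6 arrays left out in turn (adjusted p up to 0.222).

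Of 6 tested Smad genes, which encode the proteins that carry the signal to the nucleus, 0 passed at the brightest probe (median change over 11 probes -0.06). Smad3, a Smad of the activin branch, gave 0.23 (adjusted p = 0.447). Smad5, a Smad of the BMP branch, gave 0.05 (adjusted p = 0.875) at its brighter probe (ILMN_3155789), with log2 levels of 9.91 and 9.77 in wildtype and 9.62 to 10.01 in the double knockout. A dimmer Smad5 probe (ILMN_3076864), named after its values were seen, fell (-1.98 ± 0.40 SE, adjusted p = 0.0219 from limma), from 8.97 and 8.60 to 6.45, 7.88, 6.76 and 6.16. The groups stood apart at the dimmer of these probes and overlapped at the brighter one, and the call ended if either wildtype array, or the first double-knockout array, was left out (adjusted p up to 0.200).

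Of the BMP and activin response genes 8 were tested, with 1 lower, 1 higher and 6 not past the threshold (median change over 10 probes -0.15). Gata2, a zinc finger transcription factor, fell (-0.94 ± 0.22 SE, adjusted p = 0.0392), and Id2, a helix-loop-helix inhibitor that BMP signals induce in many cells, rose by 0.75 ± 0.15 (SE, adjusted p = 0.0225). The dimmer Id2 probe gave -0.21 (adjusted p = 0.497). Both calls ended if either wildtype array, or the first double-knockout array, was left out, and that of Gata2 also if double-knockout array 3 was (adjusted p up to 0.287 for Gata2 and 0.211 for Id2). None of 6 other antagonist genes passed (median change over 7 probes -0.11), and the brightest were Twsg1, which modulates BMP binding (-0.30), and Fstl1 (-0.12). None of 4 prohormone processing genes passed either (median change over 9 probes 0.02). Of these, Pcsk6, a proprotein convertase, gave 0.53 (adjusted p = 0.0728) and Furin, which cleaves many of these ligand precursors, gave 0.02.

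**Figure D4:**
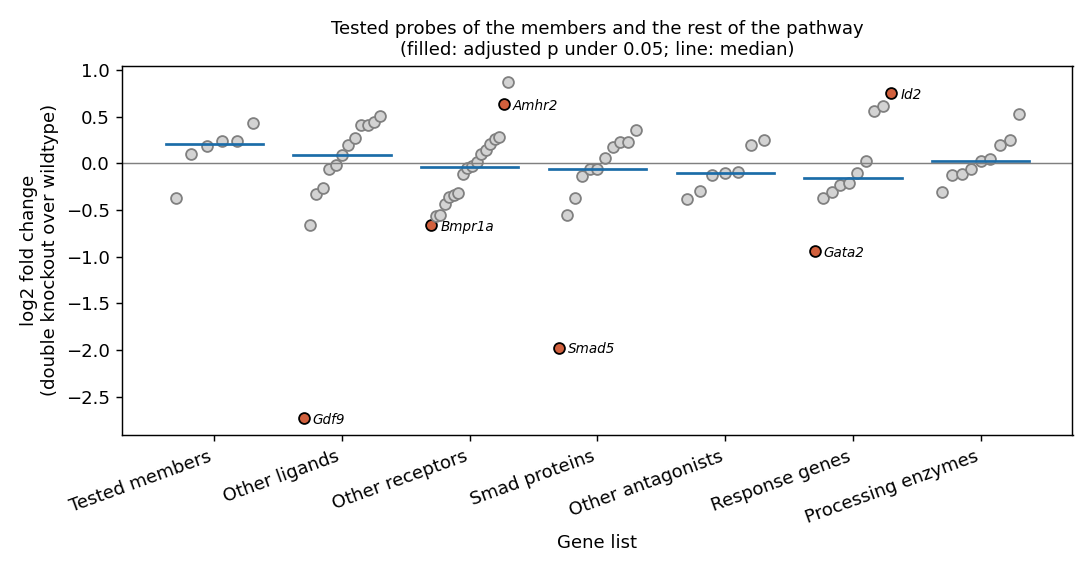
Log2 fold change (double knockout over wildtype) of each tested probe of the 6 detected genes and of 6 other pathway lists, with filled points for an adjusted p under 0.05 and a line at each median. Of the 68 other probes, 6 are filled, and the labelled Smad5 and Bmpr1a points are the dimmer probes of those genes.

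Marker lists of the cell types that an ovary can hold were counted in the same way. Of 15 tested pregranulosa genes, 3 rose (Hsd17b1 by 1.08, Runx1 by 0.67 and Amhr2), 0 fell and 12 did not pass. A dimmer Runx1 probe (ILMN_2619773) went the other way without passing (adjusted p = 0.0968 from limma). Its mean log2 level was 5.02 in wildtype and 4.55 in the double knockout, where it was detected on 0 arrays. By probe 13.6% of this list was called, beside 7.27% of all tested probes. The Hsd17b1 call ended when wildtype array 2 was left out (adjusted p = 0.083), and that of Runx1 for 3 of the 6 arrays (adjusted p up to 0.16). The summed linear signal of the 22 tested pregranulosa probes was 6399 on wildtype array 2 and 8948 on wildtype array 3. In the double knockout it was 10396 to 11938. Such a sum follows the brightest probes, here those of Amhr2 and Irx3, and does not describe each gene of a list. In the sums below the brightest were Aard (Sertoli), Kit (oocyte), Dcn (stromal) and Hba-a1 (erythroid). After normalisation, wildtype array 2 was the lowest by the pregranulosa sum. It was also the lowest for Inha, Fst, Bmp4 and Bmp7 and, level with double-knockout array 2, for Acvr2b. By raw signal it was the lowest for Inha and Fst but not for Bmp4, Bmp7 or Acvr2b. At the brightest probe of each marker gene, wildtype array 2 was not the lowest for Runx1, Nr5a2 or Kitl, the last detected on 0 wildtype arrays. Nor was it the lowest at the dimmer probes of Esr2 and Nr5a1. Foxl2, a defining pregranulosa transcription factor, lay near background (mean log2 levels of 4.66 in wildtype and 4.74 in the double knockout, where the dimmest detected probes had 4.72 to 4.76), and Wnt4, a secreted factor of the same cells, gave 0.36 (adjusted p = 0.332). Of 8 Sertoli genes, 4 rose (Cst9 by 1.15, Aard by 0.79, Gdnf by 0.77 and Sox9 by 0.63). The 4 others did not pass (Sox8 0.44, Dhh 0.41, Fgf9 -0.12 and Ptgds -0.09). By probe 40% of the Sertoli list was called, with summed signals of 3808 and 4007 in wildtype and 5693 to 7078 in the double knockout. The Sox9 call ended whichever of the 6 arrays was left out (adjusted p up to 0.311), those of Aard and Gdnf for 3 arrays each (up to 0.154) and that of Cst9 for either wildtype array (up to 0.0760).

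Of 9 tested oocyte and germ cell genes, 6 fell, with Lhx8 (-3.73), Zp3 (-2.73), Gdf9 (-2.73) and Kit (-2.31) the 4 largest, and 72.7% of the probes were called. The 3 others, Dazl (-0.27), Ddx4 (-0.40) and Nobox (-0.40), did not pass. The summed signal was 12491 and 14165 in wildtype and 3005 to 4584 in the double knockout. The calls of Lhx8, Gdf9 and Kit held without each array in turn, and that of Zp3 ended for either wildtype array (adjusted p up to 0.181). Of 7 stromal and steroidogenic genes, 1 rose at the brightest probe (Cyp17a1 by 0.83), and 15.4% of the probes were called, with summed signals of 19289 and 20721 in wildtype and 17551 to 20210 in the double knockout. The other called probe, named after its values were seen, was a dimmer one of Dcn, a stromal proteoglycan gene (ILMN_2604695, -1.13, adjusted p = 0.0386), while the brightest Dcn probe gave -0.09. The Cyp17a1 call ended for either wildtype array left out (adjusted p up to 0.114) and the Dcn call for 4 arrays (up to 0.194). Of 9 surface and mesonephric epithelium genes, 2 were called lower, 16.7% by probe, with sums of 7628 and 9776 against 5506 to 8524. Cdh16 gave -1.06, a call that ended for 3 arrays left out (adjusted p up to 0.195). Gpm6a was detected on 0 double-knockout arrays, so its change is a bound, at least 1.29-fold lower (adjusted p = 0.0278), and the call was lost under 9 of 13 alternatives (adjusted p up to 0.104). None of 7 endothelial genes passed at the brightest probe (Esam 0.42 and Emcn -0.05 being the brightest), with a median change of 0.39 over 10 probes and sums of 4690 and 5568 against 5967 to 7445. A dimmer probe of Pecam1, an endothelial adhesion gene (ILMN_1226690, named after its values were seen), rose by 1.26 (adjusted p = 0.00414). It was detected on 1 of 2 wildtype and 4 of 4 double-knockout arrays, its call ended without wildtype array 2 (adjusted p = 0.0778), and the brightest Pecam1 probe gave 0.37. None of 7 macrophage and leukocyte genes passed (C1qb -0.26 and Lyz2 0.32), with sums of 1258 and 1515 against 1074 to 1873. Of 3 erythroid genes, 1 rose (Alas2 by 1.34), 33.3% by probe, with sums of 23507 and 25253 against 25962 to 30356. The 2 others did not pass. Hba-a1 gave 0.09, and Slc4a1, named after its values were seen, gave 3.71 (adjusted p = 0.0625 from limma). Log2 levels of Slc4a1 were 7.30 and 6.18 in wildtype and spread from 7.65 to 11.97 in the double knockout. The Alas2 call ended for 4 arrays left out (adjusted p up to 0.223). The part that any of these cell types had in the values of the inhibin, activin, follistatin and BMP genes was not tested.

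The targeted gene Sohlh1 was lower in the double knockout at both of its probes (-3.33 and -3.30) and still detected on all 4 arrays, while Sohlh2 was near background, detected on 1 array of wildtype and 0 of the double knockout. The sources used here do not place these probes inside or outside the deletions. The 6 arrays detected 20124 to 20594 probes each and lay on 1 slide, and their number limits the precision of every value.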

How the data were processed

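The authors deposited a table with 1 signal intensity for each probe on each array. The submitters' processing notes name GenomeStudio without a version. Its values show no background subtraction or normalization. Beside each signal the authors deposited a detection score, from which the detection p is 1 minus the score. Their second deposited table, the series matrix, has quantile-normalized intensity on a linear scale (column medians 59.5 to 59.6, in the same direction as the raw signals, neither centred nor background-subtracted, as the values show) and served as an alternative.

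For background correction the normexp model was fitted from detection p-values (nec, limma 3.58.1, R 4.3.3), with an offset of 16, and log2 values were quantile normalized. Probes detected (p under 0.05) on at least 2 of 6 arrays were tested, 21981 of 45281, with lmFit and eBayes, no covariate, and Benjamini-Hochberg adjustment over all of them at 0.05. Exact permutation used scipy 1.17.1. Genes were named from the platform annotation: 34885 probes had 1 symbol, 18 several and 10378 are unnamed here.

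Every probe of the 10 genes is named. From each other list the called genes, up to the 4 with the largest change, or else the 2 brightest, are named at their brightest tested probe. For Inha and Fst, the 3 genes most like them by Pearson r are named. Other genes and probes, apart from the targeted genes, were chosen after their values were seen. Members and lists were chosen with earlier results of these data known. The procedure was tested on simulated data. There were 15 alternatives, in background correction, offset, scaling, source of values, filter, replicate block, variance trend and each array left out.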

Additional observations from a re-analysis of the deposited data

How the results depend on the processing

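Under each of the 15 alternatives, 0 of the 6 probes of Inha, Inhba, Fst, Bmp4, Bmp7 and Acvr2b passed an adjusted p of 0.05, also with no filter, where the 6 dim probes were tested too (adjusted p 0.708 or more for these). The sign held under every alternative for Inhba, Fst, Bmp4 and Acvr2b, and turned without wildtype array 2 for Inha (-0.0892) and Bmp7 (-0.105). Every alternative brought the arrays to a common scale, so the sign without that step was not tested. Over the 6 left-out arrays Inha ran up to 0.572 and Bmp7 up to 0.313. The smallest adjusted p was 0.0960, for Fst without wildtype array 3. Unadjusted p was under 0.05 for Fst under 10 of 15 alternatives, for Inhba under 5 and for Inha under 1. The number of called probes was 1598 over all probes and 6 over the other pathway genes. It ran from 224 to 1458 and from 1 to 5 with 1 array left out, and was 2 for the pathway with no filter (125 probes tested).

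Titles and descriptions give different replicate numbers, and neither is stated to mark a litter or day. Deviations of arrays with the same number correlated at -0.105 and -0.0319 by title and at -0.111 and 0.105 by description. In a group of 2 arrays the deviations from the mean mirror each other, so these values cannot decide whether the numbers mark pairs. The main fit used no pairs, because the labels state none. With the replicate block, 888 probes were called by title numbers, and the pathway count was 2 by title and 3 by description numbers. The cause of these differences was not tested. Signal over background limits Fstl3, Bmp2, Acvr2a and the second probes of Bmp4 and Bmp7.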
